A study of Homo sapiens with 31 samples.

Results

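The 10 genes described here are ATF4 and 9 genes of the stress response that its protein drives: DDIT3, TRIB3, CHAC1, ASNS, SESN2, SLC7A11, NUPR1, HERPUD1 and ADM2. They were picked by name from 56269 gene names in the deposited count tables, with earlier results of these data known, and all 10 passed the filter on low counts that 15787 names passed. The cells were MCF10A, a non-transformed human breast epithelial line. They had been starved for 2 to 3 days in medium with hydrocortisone, cholera toxin and bovine serum albumin but without horse serum, EGF or insulin (0 h, 3 libraries). They were then released into full growth medium to which 0.1% DMSO or palbociclib at 1 µM was added. Palbociclib inhibits CDK4 and CDK6, kinases that drive cells out of G1. DMSO libraries were made at 3, 6, 9, 12, 15 and 24 h and palbociclib libraries at 9, 12, 15 and 24 h, 3 per group except for 2 in each 24 h group. Hydrocortisone and cholera toxin were present in all 11 groups. Whether replicates were separate cultures is not stated in the labels. The p-values therefore rest on library-to-library spread alone, and that spread may be technical.

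ATF4 is a bZIP transcription factor whose messenger RNA is translated efficiently when the initiation factor eIF2 is phosphorylated, which happens when amino acids run short, unfolded proteins gather in the endoplasmic reticulum (ER), haem is lacking or viral RNA is sensed. This integrated stress response leads to transcription of genes for amino acid supply, redox defence and, under lasting stress, cell death. Because ATF4 protein is set largely by translation, the level of its messenger RNA is not a measure of its activity. ATF4 pairs with C/EBP proteins on composite C/EBP-ATF response elements, whose core reads TGATGNAA.

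The core is shown in its promoter context because it is the letter pattern by which ATF4 is known to be recruited to several of these genes. RefSeq promoter sequences (GRCh38.p14, 250 bases before to 50 after each start site) held 8 of the 10 genes, and those of SLC7A11 and NUPR1 were not used here. TGATGNAA was found on either strand in ASNS, CHAC1 and HERPUD1, 3 of 8 genes, while 3.62% of 35116 promoters and 4.46% of the 27305 genes in the table held it. Each line below gives 30 bases on the strand of the gene, 5′ to 3′, with the match in capitals.
ASNS: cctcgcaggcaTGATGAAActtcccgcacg
CHAC1: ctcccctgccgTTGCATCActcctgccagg
HERPUD1: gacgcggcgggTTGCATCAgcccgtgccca
The ASNS stretch of 30 bases is chr7:97872458-97872487, minus strand, and the match in it (97872469 to 97872476) begins 68 bases before the start site. In the CHAC1 stretch (chr15:40953251-40953280, plus strand) the match (40953262 to 40953269) begins 209 bases before the start. In the HERPUD1 stretch (chr16:56931955-56931984, plus strand) the match (56931966 to 56931973) begins 176 bases before it. CHAC1 and HERPUD1 carry the same 8 letters, TTGCATCA, the reverse complement of TGATGCAA, a form present in 0.866% of promoters and 1.08% of genes. The ASNS and CHAC1 matches overlap an exon of their gene in the deposited annotation and the HERPUD1 match overlaps none. The core of the antioxidant response element, TGACNNNGC on either strand, was found in 1 of the 8 genes, TRIB3, and in 16.1% of genes (13.3% of promoters). Within the 250 bases before the start site it was found in 0 of the 8 and in 13.2% of genes. The ER stress response element (CCAAT, 9 bases, CCACG, either strand) was found in 0 of the 8 and in 0.0916% of genes (0.0769% of promoters). A match is a description of the letters and not evidence of binding.

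Library totals ran from 10342358 to 20878364 counts. The identity of the cells was checked on basal epithelial markers, whose 8 genes summed to between 9340 and 16400 CPM (counts scaled to the library total) in every library, against at most 0.423 CPM for 4 immune markers. The 5 fibroblast markers summed to 74.4 to 85.4 CPM at 0 h and were lower at later times, down to 16.2 to 16.3 CPM at 24 h of DMSO and 15.3 to 18.1 CPM at 24 h of palbociclib. Among them DCN went from 52.7 to 3.9 CPM between 0 h and 24 h of DMSO, over the course in which ATF4 and NUPR1 fell. The rest of the list did not share that course. COL1A1 was at 26.2 CPM at 0 h, and at 27.4, 22.6 and 11.9 CPM at 3, 15 and 24 h of DMSO. At 0 h PDGFRB was at 0.51 CPM, and COL1A2 and LUM were at 0 CPM. The 4 endothelial markers summed to 89.7 to 98.8 CPM at 0 h, mostly from KDR (89 CPM), and to 0.514 to 2.78 CPM from 6 h on, while CDH5 (0.1 CPM) and VWF (0.124 CPM) were near 0 at 0 h. Their part in the results below was not tested. In bulk RNA, fewer cells expressing a gene and less RNA per cell cannot be told apart.

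Levels are given in CPM with TMM-scaled library totals, and levels of different genes are compared only as RPKM, that is, CPM per kilobase of exon. The length used is that of all annotated exons of a gene, from 1266 bases for DDIT3 to 9645 for SLC7A11. The order between genes therefore also depends on the annotation. A gene is said to rise or fall in a comparison where its Benjamini-Hochberg adjusted p over all 15787 tested genes in edgeR's quasi-likelihood test was below 0.05. Changes are log2 fold changes ± standard error.

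At 0 h ATF4 messenger RNA, from chromosome 22 (39519695 to 39522685, GRCh38.p7), stood at 238 RPKM on average, the highest of the 10. NUPR1 followed with 24.5 RPKM, HERPUD1 with 17.3, TRIB3 with 9.38, DDIT3 with 9.08, SESN2 with 8.79, ASNS with 4.65, SLC7A11 with 2.41, CHAC1 with 0.936 and ADM2 with 0.617 RPKM. After 24 h in DMSO the order below ATF4 (93.8 RPKM) had changed: TRIB3 was second with 30 RPKM, NUPR1 had dropped to 1.91 RPKM, and ADM2 remained last with 0.295 RPKM. CHAC1, DDIT3 and ADM2 had the fewest reads, with as few as 13, 16 and 11 counts in a library, so their changes are the least precise.

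**Figure D1:**
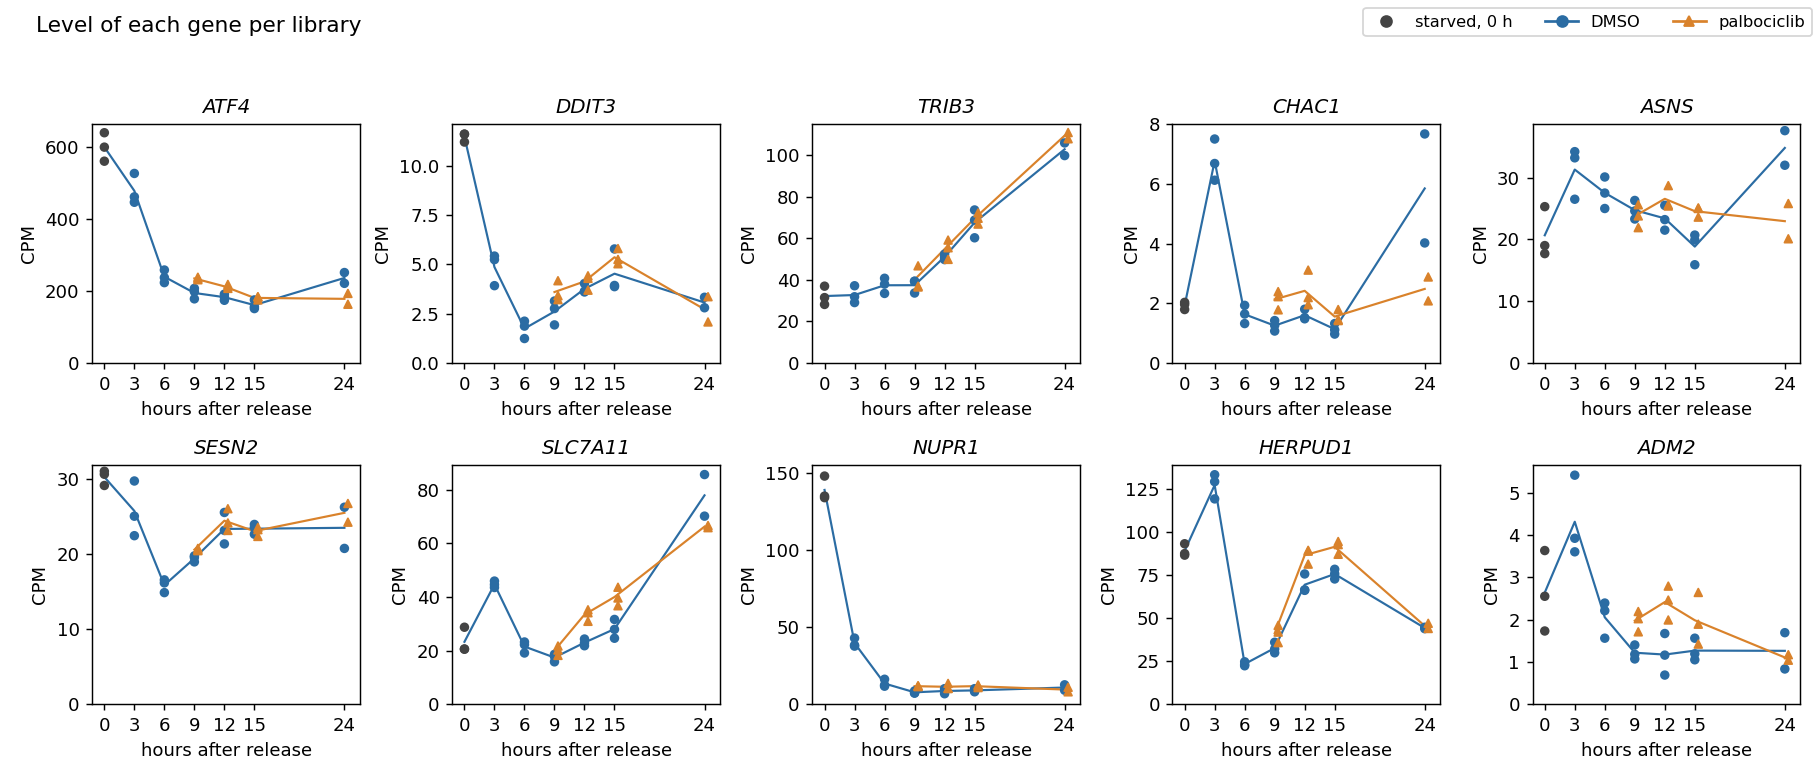
Level of each of the 10 genes in CPM (vertical axis, linear from 0) against hours after release, with 1 point per library and lines through group means, for starved cells at 0 h, DMSO and palbociclib. ATF4, DDIT3 and NUPR1 were highest at 0 h, CHAC1, HERPUD1 and ADM2 peaked at 3 h, and TRIB3 and SLC7A11 were highest at 24 h.

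Release from starvation did not move the 10 genes together. ATF4 and NUPR1 fell and stayed low, CHAC1, SLC7A11 and HERPUD1 rose at 3 h and had dropped back by 6 h, and TRIB3 climbed from 12 h on. At 3 h against 0 h 5 members were higher and 4 lower, where 27.8% of all tested genes were called higher and 34.4% lower. The counts were 1 higher and 5 lower at 6 h (34% and 39.5% of all genes), 0 and 8 at 9 h (35.3% and 39.9%), 1 and 6 at 12 h (36.1% and 39.6%), 2 and 7 at 15 h (37.4% and 39.3%) and 4 and 6 at 24 h (36.7% and 38.9%). At 9 h 2 members, TRIB3 and ASNS, were higher at an unadjusted p below 0.05 and in DESeq2. The median change of the 10 was 0.26 at 3 h, -0.88 at 9 h and -0.68 at 24 h, beside all-gene medians of -0.10, -0.09 and -0.09. A lack of overlap with the 0 h libraries was common over all genes. At 3 h 4 members lay wholly above and 3 wholly below 0 h, beside 27.4% and 35.9% of all tested genes. The counts were 0 and 8 at 9 h (35.7% and 40.1%) and 4 and 6 at 24 h (39.1% and 42.6%). For steps between DMSO times the all-gene share without overlap was not counted. All 6 comparisons share the 3 libraries at 0 h, and the steps and drug comparisons below share the DMSO groups. With library totals in place of TMM factors the all-gene median at 3 h was -0.27, and no member changed direction in any called comparison.

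**Figure D2:**
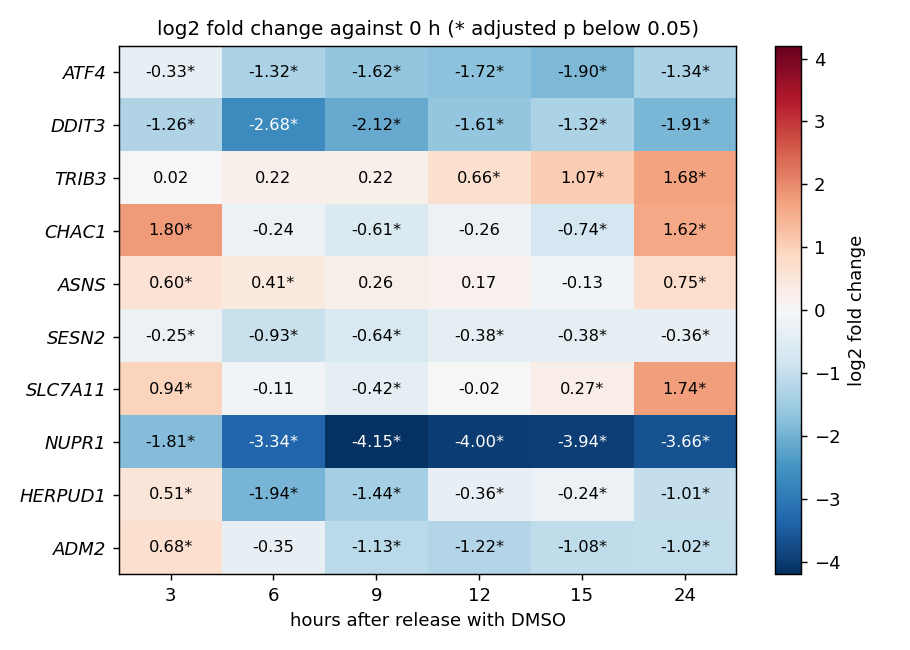
Heat map of the log2 fold change of each gene (rows) in DMSO at 6 times (columns, hours after release) against 0 h, with the value in each cell and a star where the adjusted p was below 0.05. NUPR1 ran from -1.81 at 3 h to -4.15 at 9 h, while TRIB3 went from 0.02 at 3 h to 1.68 at 24 h.

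Among the transcription regulators, ATF4 had 599, 639 and 560 CPM before release. It was at 526, 461 and 446 CPM at 3 h, 237, 258 and 223 CPM at 6 h, 198, 207 and 178 CPM at 9 h, 183, 191 and 174 CPM at 12 h, and 156, 175 and 151 CPM at 15 h. Every library after release was below every library at 0 h, and the 24 h libraries, at 221 and 251 CPM, stood above those at 15 h. ATF4 fell by 0.33 ± 0.07 at 3 h (adjusted p = 0.00021) and by 1.90 ± 0.08 at 15 h (adjusted p = 1.9e-20), the lowest point, to a 3.73-fold lower level. From 15 to 24 h it rose by 0.55 ± 0.08 (adjusted p = 3.3e-06).

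DDIT3 (chromosome 12, 57516588 to 57520517) encodes CHOP, a bZIP factor induced by ATF4 and associated with cell death under lasting ER stress. It stood at 11.6, 11.2 and 11.6 CPM at 0 h, 5.42, 3.92 and 5.24 CPM at 3 h and 1.87, 2.12 and 1.24 CPM at 6 h. The groups did not overlap, and the change at 6 h was -2.68 ± 0.19 (adjusted p = 3.7e-14). The later DMSO libraries, between 1.93 and 5.78 CPM, were all below those at 0 h. Of the exonic bases of DDIT3, 28% are shared with MARS on the opposite strand. Reads were counted without regard to strand and those matching both genes were dropped, so the level of DDIT3 is uncertain. MARS, the methionyl-tRNA synthetase gene, rose by 1.42 ± 0.07 at 6 h.

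NUPR1 (chromosome 16, 28532708 to 28539174), a small stress-induced chromatin protein, showed the deepest fall. It was at 134, 148 and 135 CPM at 0 h, 42.9, 37.7 and 38.3 CPM at 3 h, 12.4, 16.2 and 11.7 CPM at 6 h and 7.19, 8.62 and 7.41 CPM at 9 h. None of these groups overlapped with the next. The change at 9 h was -4.15 ± 0.13 (adjusted p = 2.9e-23), a 17.8-fold lower level, and DMSO libraries from 12 to 24 h stayed between 6.82 and 12.6 CPM.

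TRIB3 (chromosome 20, 362835 to 397559), a pseudokinase that feeds back on ATF4 and binds AKT, did not share the early fall of ATF4. It rose from 12 h on, and from 15 to 24 h both genes rose. Its libraries held 31.5, 37.0 and 28.2 CPM at 0 h, 52.4, 51.1 and 49.8 CPM at 12 h, 73.7, 68.8 and 60.3 CPM at 15 h, and 99.9 and 106 CPM at 24 h. From 12 h on each group lay wholly above the one before it. The rise against 0 h was 0.66 ± 0.10 at 12 h (adjusted p = 5.3e-07) and 1.68 ± 0.11 at 24 h (adjusted p = 2.7e-15), while at 3 h the difference was 0.02 ± 0.10. SESN2 (chromosome 1, 28259527 to 28282491), which restrains mTORC1 when leucine is scarce, moved little: 29.2, 31.1 and 30.7 CPM at 0 h, 14.9, 16.6 and 16.2 CPM at 6 h, and 20.8 and 26.3 CPM at 24 h. Its lowest group was 6 h, at -0.93 ± 0.09 (adjusted p = 5.7e-11), with no overlap with 0 h. The fall of SESN2 at 3 h (-0.25 ± 0.08) was not called without DMSO 3 h replicate 2 (-0.13), and that at 24 h (-0.36 ± 0.09) not without DMSO 24 h replicate 1 (-0.20).

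ASNS, SLC7A11 and CHAC1 act in amino acid and glutathione metabolism. CHAC1 (chromosome 15, 40952962 to 40956519), which degrades glutathione, had 2 peaks in DMSO. Its libraries held 2.03, 1.96 and 1.79 CPM at 0 h, 7.5, 6.12 and 6.68 CPM at 3 h, 0.968 to 1.93 CPM at 6 to 15 h, and 4.02 and 7.67 CPM at 24 h. Both peaks stood clear of the other times. The rise was 1.80 ± 0.20 at 3 h (adjusted p = 4.1e-09) and 1.62 ± 0.22 at 24 h (adjusted p = 8.7e-08). The lower calls at 9 h (-0.61 ± 0.25) and 15 h (-0.74 ± 0.26) were lost without any 1 of 5 libraries at 9 h (0 h replicate 1 or 2 and each DMSO replicate, -0.41 to -0.64) and without DMSO replicate 1 or 3 at 15 h (-0.64 and -0.56).

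SLC7A11 (chromosome 4, 138164097 to 138242349), the cystine-glutamate exchanger, shared both peaks. It stood at 20.5, 28.7 and 20.6 CPM at 0 h, 43.5, 44.6 and 45.9 CPM at 3 h, 15.8, 18.6 and 17.8 CPM at 9 h, and 70.1 and 85.6 CPM at 24 h. The 3 h and 24 h libraries lay above all at 0 h. The rise was 0.94 ± 0.11 at 3 h (adjusted p = 4.9e-09) and 1.74 ± 0.11 at 24 h (adjusted p = 4.4e-15), and from 15 to 24 h alone it was 1.47 ± 0.11. The smaller calls at 9 h (-0.42 ± 0.12) and 15 h (0.27 ± 0.11) depended on single libraries: -0.26 without DMSO 9 h replicate 1, -0.24 without 0 h replicate 2, and 0.19, 0.18 and 0.25 at 15 h without 0 h replicate 1, 0 h replicate 3 or DMSO replicate 2. With library totals the 15 h call of SLC7A11 was lost as well (0.16). Of the exonic bases of SLC7A11, 8.97% are shared with SLC7A11-AS1 on the opposite strand, so the part of its level that comes from them is uncertain, because strand was not used in counting.

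ASNS (chromosome 7, 97852118 to 97872542), asparagine synthetase, varied least of the 10, 1.85-fold between its highest and lowest group means. Its libraries held 17.7, 25.3 and 19.0 CPM at 0 h, 33.2, 34.2 and 26.5 CPM at 3 h, 19.9, 20.7 and 15.9 CPM at 15 h, and 32.0 and 37.6 CPM at 24 h. The 0 h and 15 h groups overlapped, whereas those at 3 and 24 h were above both. It rose by 0.60 ± 0.12 at 3 h (adjusted p = 4.7e-05), by 0.41 ± 0.12 at 6 h and 0.75 ± 0.13 at 24 h (adjusted p = 3.6e-06).

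HERPUD1 (chromosome 16, 56932048 to 56944863), an ER membrane protein of ER-associated degradation, swung up, down and up again. It was at 87.3, 93.0 and 86.4 CPM at 0 h, 133, 119 and 129 CPM at 3 h, 23.0, 22.3 and 24.6 CPM at 6 h, 29.8, 35.9 and 32.0 CPM at 9 h, and 75.5, 66.3 and 66.0 CPM at 12 h. No 2 of these groups overlapped. Between 3 and 6 h it fell by 2.45 ± 0.08 (adjusted p = 1.6e-21), a 5.45-fold drop, and between 9 and 12 h it rose by 1.08 ± 0.08 (adjusted p = 1.9e-12). At 24 h it was down again, at 44.6 and 43.8 CPM. Its call at 15 h (-0.24 ± 0.07) was lost without DMSO replicate 1 (-0.13) or 2 (-0.16), and without the 5 libraries described below (-0.14).

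ADM2 (chromosome 22, 50481556 to 50486440), which encodes the peptide hormone adrenomedullin 2, was the scarcest. It stood at 2.55, 3.63 and 1.73 CPM at 0 h, 3.92, 3.6 and 5.41 CPM at 3 h, and 0.689 to 1.69 CPM in the 11 DMSO libraries from 9 h on. The libraries at 0 and 3 h overlapped, and those from 9 h were all below 0 h. That last separation was a near tie. DMSO 24 h replicate 3 was at 1.69 CPM (32 counts) and 0 h replicate 3 at 1.73 CPM (29 counts). Its rise at 3 h (0.68 ± 0.25, adjusted p = 0.019) was lost without 0 h replicate 3 (0.45) or DMSO replicate 3 (0.52). Its fall at 12 h was -1.22 ± 0.30 (adjusted p = 0.00055). The fall at 24 h (-1.02 ± 0.33) was lost without DMSO replicate 1 (-0.64) or 0 h replicate 2 (-0.71).

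Step by step in DMSO, the largest joint movement was from 3 to 6 h. All 8 members called in that step were lower, namely every member but TRIB3 and ASNS. Of all 15787 tested genes 57.6% were called in either direction, 4388 genes higher and 4705 lower. From 6 to 9 h 5 members were called (34.8% of all genes), with SESN2 and HERPUD1 higher and ATF4, SLC7A11 and NUPR1 lower. From 9 to 12 h the 4 called members, TRIB3, SESN2, SLC7A11 and HERPUD1, were all higher (15.2% of all genes, 1432 higher and 966 lower). From 12 to 15 h TRIB3 alone was called, at 0.40 ± 0.10 (7.01% of all genes), and not without DMSO 15 h replicate 1 (0.33). From 15 to 24 h ATF4, TRIB3, CHAC1, ASNS and SLC7A11 rose while DDIT3 and HERPUD1 fell (29.6% of all genes). CHAC1 led that step at 2.36 ± 0.24 (adjusted p = 3.6e-09), a 5.14-fold rise. The smaller step calls of SESN2, SLC7A11 and DDIT3 were lost in some fits with 1 library left out, as follows: SESN2 at 9 h without DMSO 6 h replicate 1 (0.26) or DMSO 9 h replicate 2 (0.27), SLC7A11 at 9 h without DMSO 6 h replicate 2 or 3 or DMSO 9 h replicate 1 or 3 (-0.23 to -0.32) and DDIT3 at 24 h without DMSO 15 h replicate 2 or either DMSO 24 h library (-0.36 to -0.72). From 9 to 12 h SESN2 (0.26 ± 0.09) was not called without DMSO 9 h replicate 1, 2 or 3 or DMSO 12 h replicate 1 or 3 (0.21 to 0.28), nor SLC7A11 (0.40 ± 0.12) without DMSO 9 h replicate 1 (0.34) or DMSO 12 h replicate 2 (0.37).

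Palbociclib was compared with DMSO at each matched time to ask how blocking CDK4 and CDK6 during cell-cycle entry alters these genes. All calls among the members were upward at 9, 12 and 15 h and downward at 24 h. At 9 h NUPR1 and HERPUD1 were higher and 0 members lower, where 0.114% of all tested genes were called higher and 1.08% lower. At 12 h SLC7A11, HERPUD1 and ADM2 were higher and 0 lower (0.83% and 4.81% of all genes), and at 15 h ASNS, SLC7A11 and HERPUD1 were higher and 0 lower (2.15% and 8.79%). At 24 h ATF4, CHAC1 and ASNS were lower and 0 members higher, where 12.3% of all genes were called lower and 5.76% higher. In each of these directions with a count of 0, edgeR at an unadjusted p below 0.05 and DESeq2 also gave 0 members. The median of the 10 was 0.30, 0.27, 0.33 and -0.20 at 9, 12, 15 and 24 h, beside all-gene medians of 0.00 to 0.01. At 9 h 6 members had all palbociclib libraries above all DMSO libraries, as had 6 at 12 h and 6 at 15 h, beside 7.84%, 10.8% and 9.39% of all tested genes.

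**Figure D3:**
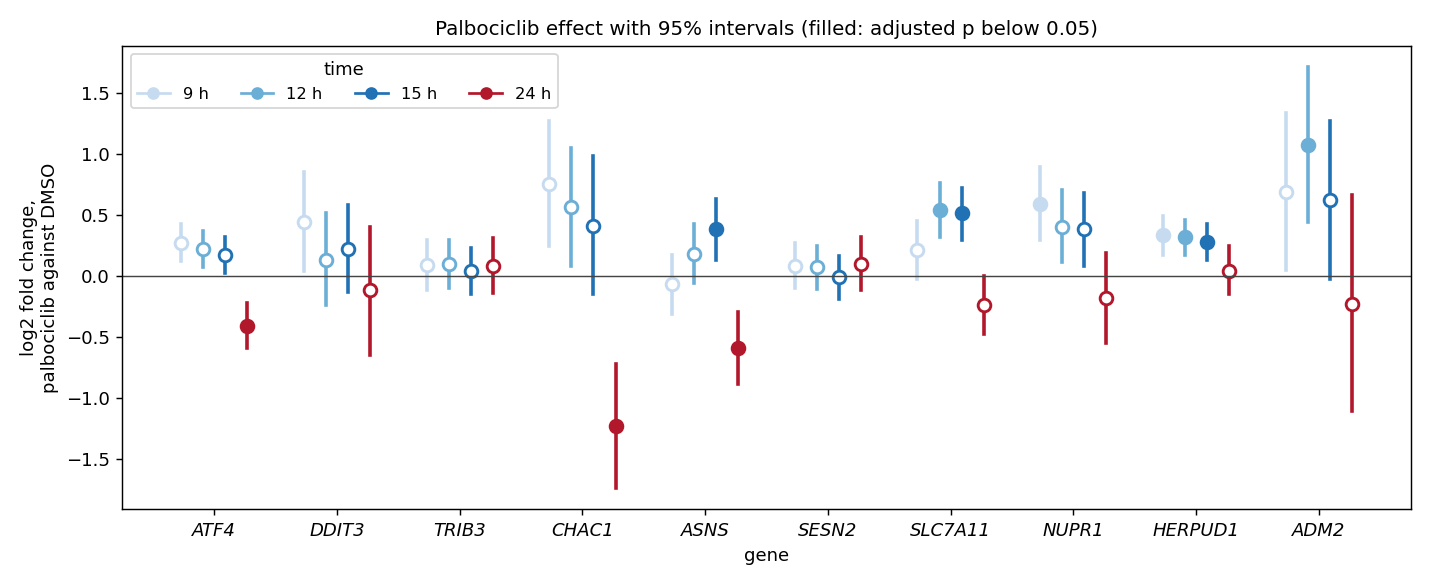
Log2 fold change of palbociclib against DMSO (vertical axis) for each gene at 9, 12, 15 and 24 h, with 95% intervals, filled where the adjusted p was below 0.05. The filled points at 9, 12 and 15 h lie above 0, and those of ATF4, CHAC1 and ASNS at 24 h lie below 0.

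HERPUD1 was the member called at all 3 early times. With palbociclib it stood at 35.7, 41.8 and 45.7 CPM at 9 h, 89.2, 81.2 and 88.7 CPM at 12 h and 86.9, 94.3 and 92.5 CPM at 15 h. In DMSO it was at 29.8, 35.9 and 32.0, then 75.5, 66.3 and 66.0, then 72.6, 75.6 and 78.2 CPM. The groups overlapped at 9 h but not at 12 and 15 h, and the difference was 0.33 ± 0.08, 0.32 ± 0.07 and 0.28 ± 0.07 (adjusted p = 0.022, 0.0038 and 0.0083). At 24 h the difference was 0.04, with an interval of -0.15 to 0.24.

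SLC7A11 held 34.1, 35.2 and 30.9 CPM with palbociclib at 12 h and 39.6, 43.6 and 36.7 CPM at 15 h. The DMSO libraries, at 21.8, 24.3 and 22.8 CPM and at 24.6, 31.6 and 27.9 CPM, were all lower. Palbociclib raised it by 0.54 ± 0.11 at 12 h (adjusted p = 0.00094) and by 0.51 ± 0.11 at 15 h (adjusted p = 0.00088), 1.45-fold and 1.42-fold. At 24 h, with 66.6 and 65.8 against 70.1 and 85.6 CPM, it was -0.24 ± 0.12 (adjusted p = 0.18), which did not pass.

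The other early calls were smaller or rested on fewer reads. NUPR1 at 9 h was at 11.4, 12.0 and 11.8 CPM against 7.19, 8.62 and 7.41 CPM in DMSO, without overlap, a difference of 0.59 ± 0.15 (adjusted p = 0.037). ADM2 at 12 h was at 2.46, 1.99 and 2.79 CPM against 1.16, 0.689 and 1.67 CPM, also without overlap, a difference of 1.07 ± 0.31 (adjusted p = 0.033). ASNS at 15 h was at 25, 25.1 and 23.6 CPM against 19.9, 20.7 and 15.9 CPM, a difference of 0.38 ± 0.12 (adjusted p = 0.04). These 3 calls were lost in most fits with 1 library left out. NUPR1 kept its call only without DMSO replicate 2 and ranged from 0.54 to 0.62 without any other, and ASNS only without DMSO replicate 2 (0.28 to 0.42 otherwise). ADM2 lost it when DMSO replicate 1, DMSO replicate 2, palbociclib replicate 1 or palbociclib replicate 3 was left out (0.76 to 1.10). HERPUD1 at 9 h lost it when DMSO replicate 1, DMSO replicate 3, palbociclib replicate 2 or palbociclib replicate 3 was left out (0.25 to 0.32).

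ATF4 itself was at 231, 238 and 235 CPM with palbociclib at 9 h, 218, 213 and 207 CPM at 12 h and 175, 184 and 183 CPM at 15 h. Each palbociclib group had at most 1.21 times the DMSO mean, and the groups did not overlap at any of these times, although the closest pair at 15 h both round to 175 CPM. The differences, 0.27 ± 0.07, 0.22 ± 0.07 and 0.17 ± 0.07, missed the threshold (adjusted p = 0.071, 0.081 and 0.17) but passed it at 9 h (adjusted p = 0.041) and 12 h (adjusted p = 0.043) in DESeq2. Over all alternatives the adjusted p of ATF4 ran from 0.0023 to 0.47 at 9 h and from 0.0063 to 0.34 at 12 h.

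At 24 h ATF4 was at 163 and 193 CPM with palbociclib against 221 and 251 CPM in DMSO. CHAC1 was at 2.08 and 2.88 against 4.02 and 7.67 CPM, and ASNS at 20.1 and 25.8 against 32.0 and 37.6 CPM. In all 3 genes both palbociclib libraries lay below both DMSO libraries. Of the 10 members 4 lay wholly lower in this way and 1 wholly higher, beside 28.9% and 25.2% of all tested genes. The differences were -0.41 ± 0.09 for ATF4 (adjusted p = 0.0013), -1.23 ± 0.25 for CHAC1 (adjusted p = 0.00042) and -0.59 ± 0.14 for ASNS (adjusted p = 0.0028). With 2 libraries a group these calls depended on single libraries. Without DMSO replicate 3 they became -0.32, -0.68 and -0.48 (adjusted p = 0.068, 0.12 and 0.079), and without palbociclib replicate 1 ATF4 and ASNS became -0.27 and -0.41 (adjusted p = 0.12 for both). Over all alternatives the highest adjusted p of each of these 3 genes was 0.12. TRIB3, DDIT3, SESN2, NUPR1, HERPUD1 and ADM2 were between -0.23 and 0.10 and did not pass.

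The change in the palbociclib effect between times was tested directly. From 9 to 15 h it differed for 0 members (1 at an unadjusted p below 0.05, ASNS, and 0 in DESeq2) and for 4.05% of all tested genes. From 15 to 24 h it differed for 4 members, all toward lower, and for 2.98% of all genes (167 toward higher and 303 toward lower). The members were ATF4 (-0.57 ± 0.12, adjusted p = 0.0027), CHAC1 (-1.65 ± 0.37, adjusted p = 0.0082), ASNS (-0.97 ± 0.19, adjusted p = 0.0015) and SLC7A11 (-0.74 ± 0.16, adjusted p = 0.0044). The same genes can be followed within each arm. In DMSO all 4 rose from 15 to 24 h, whereas under palbociclib, where 20.5% of all genes were called in that step, only SLC7A11 of the 4 was called (0.72 ± 0.11). ATF4 changed by -0.02 ± 0.08 and ASNS by -0.09 ± 0.14 there, and CHAC1 by 0.72 ± 0.27 (adjusted p = 0.063). TRIB3 rose in both arms, by 0.61 ± 0.10 in DMSO and 0.65 ± 0.10 under palbociclib, with a difference between the arms of 0.04 and an interval of -0.25 to 0.34. HERPUD1 fell in both, by 0.77 ± 0.08 and 1.01 ± 0.09, and DDIT3 fell by 0.59 ± 0.21 and 0.94 ± 0.22. Under palbociclib from 9 to 15 h 5 members were called (27.9% of all genes): DDIT3, TRIB3, SLC7A11 and HERPUD1 rose, by 0.58, 0.80, 0.99 and 1.15, and ATF4 fell by 0.38. DDIT3 lost that call without palbociclib 9 h replicate 1 or 2 or 15 h replicate 3 (0.53 to 0.55), and its 24 h call without palbociclib 24 h replicate 1 (-0.66).

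Libraries of the same group differed along a shared axis that took 27.5% of the variance within groups. Replicate 3 of DMSO 24 h and of palbociclib at 9, 12, 15 and 24 h, 5 libraries in all, stood on its positive side (scores of 7.84 to 27.2), whereas replicate 3 of the other 6 groups stood on its negative side (-18.5 to -7.51). Within groups over the 31 libraries ATF4 tracked this axis with a correlation of 0.71, NUPR1 with 0.57 and ASNS with 0.50, while the values for SESN2 and ADM2 were -0.10 and -0.02. The axis was drawn from the within-group deviations of these same libraries. As a covariate it can hardly move a group difference and mainly narrows the spread. Calls kept or gained with it are therefore no independent check. With the axis as a covariate the 3 calls at 24 h and the 4 changes from 15 to 24 h were kept. ATF4 was also called higher under palbociclib at 9, 12 and 15 h (0.27, 0.22 and 0.17, adjusted p = 0.0023, 0.0063 and 0.038). Without the 5 libraries, which leaves 1 library in each 24 h group, the calls of NUPR1 (0.59) and HERPUD1 (0.25) at 9 h, ADM2 at 12 h (0.95), ASNS at 15 h (0.41) and CHAC1 at 24 h (-0.96) were lost, and 2 of the 4 changes from 15 to 24 h remained. What separates these libraries was not tested.

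Genes that surround the 10 in the pathway were followed in 8 lists. Of 7 sensors and phosphatases of the response, EIF2S1, the alpha subunit of eIF2, rose at every time (1.21 ± 0.08 at 3 h and 1.31 ± 0.08 at 24 h). PPP1R15A (GADD34), the stress-induced phosphatase subunit that removes eIF2 phosphate and an ATF4 target, fell by 0.28 ± 0.09 at 3 h and by 2.07 ± 0.12 at 24 h. Of the kinases, EIF2AK2 (PKR) was lower at 3 h (-0.56 ± 0.07) and higher at 24 h (0.41 ± 0.07). At 3 h EIF2AK4 (GCN2) was lower (-0.42 ± 0.05) and EIF2AK3 (PERK) higher (0.44 ± 0.07). Of the 7 genes, 3 were higher and 3 lower at 3 h (27.8% and 34.4% of all tested genes). At 24 h 3 were higher and 1 lower (36.7% and 38.9%). Palbociclib lowered 2 of the 7 at 24 h, EIF2AK2 and EIF2AK3 (PERK), whose differences were both -0.30, where 12.3% of all tested genes were called lower.

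The 6 bZIP partners and relatives of ATF4 had 3 higher and 1 lower at 3 h, and 0 higher and 5 lower at each time from 6 h. The shares of all tested genes were 27.8% higher and 34.4% lower at 3 h, and 34% to 37.4% higher and 38.9% to 39.9% lower from 6 h on. From 6 h on 0 of the 6 were higher also at an unadjusted p below 0.05 and in DESeq2, and 1 was at 6 h without replicate 3 of DMSO 24 h and of the palbociclib groups. ATF3 was 0.76 ± 0.19 at 3 h and -3.44 ± 0.26 at 12 h. CEBPB fell by 1.46 ± 0.08 at 9 h and NFE2L2 (NRF2) by 1.40 ± 0.08, while CEBPG, a common partner of ATF4, rose at 3 h (0.70 ± 0.06) and was within 0.09 of its 0 h level afterwards.

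The 18 further amino acid genes of the ATF4 program split. At 24 h 10 were higher and 3 lower (36.7% and 38.9% of all tested genes), with a median of 0.60 beside -0.09 for all genes. PSAT1 of serine synthesis was higher by 1.71 ± 0.10, PSPH by 1.55 ± 0.10 and PHGDH by 1.49 ± 0.12, while the neutral amino acid transporter gene SLC1A5 was at -0.99 ± 0.07. Palbociclib at 24 h called 7 of the 18 lower and 0 higher, where 12.3% of all tested genes were lower and 5.76% higher. At an unadjusted p below 0.05 there was 1 higher, and DESeq2 called 0. The lower genes were led by PHGDH (-2.22 ± 0.15), SLC1A4 (-1.53 ± 0.19) and PSAT1 (-0.55 ± 0.11). Already at 15 h of palbociclib 4 of the 18 were lower and 1 higher, beside 8.79% and 2.15% of all tested genes. SLC1A4 (-0.80 ± 0.14) and PHGDH (-0.49 ± 0.13) were among the lower genes then, and ALDH1L2 (0.25 ± 0.05) was the higher one. Of 12 cytosolic aminoacyl-tRNA synthetase genes 11 were higher at 24 h against 0 h (36.7% of all tested genes), with WARS at 2.14 ± 0.08, MARS at 1.66 ± 0.08 and IARS at 1.55 ± 0.06. Under palbociclib at 24 h 1 was higher (WARS, 0.30 ± 0.08) and 2 lower (AARS, -0.25 ± 0.07, and LARS, -0.15 ± 0.05), beside 5.76% and 12.3% of all genes.

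Of 10 other effectors of ATF4 and CHOP, 8 were tested. At 24 h palbociclib lowered 4 of the 8 (12.3% of all tested genes), namely GDF15 (-0.81 ± 0.21), STC2 (-0.75 ± 0.13), XPOT (-0.21 ± 0.06) and LAMP3 (-1.98 ± 0.63, outside the rule for named genes and added after its value was seen). Their median was -0.41, beside 0.01 for all genes. On release the list split. At 24 h of DMSO against 0 h 4 of the 8 were higher and 2 lower (36.7% and 38.9% of all tested genes). The median was 0.56, beside -0.09 for all genes. VLDLR (2.86 ± 0.34), XPOT (1.16 ± 0.06) and ERO1A (0.89 ± 0.09) were higher then. GDF15, a stress-induced cytokine, had fallen by 3.88 ± 0.16 at 9 h of DMSO. DDIT4 (REDD1), an mTORC1 inhibitor, was at -3.03 ± 0.13 at 3 h and at -0.34 ± 0.11 at 6 h.

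The 18 ER chaperone and ER-associated degradation genes mostly rose on release. At 3 h 14 were higher and 0 lower, also at an unadjusted p below 0.05 and in DESeq2 (median 0.56), when HERPUD1 was higher as well. At 6 h, with HERPUD1 at -1.94 ± 0.08, 12 were higher and 5 lower, and at 24 h 14 were higher and 3 lower (median 1.30). Over all tested genes, calls at 3 h were 27.8% upward and 34.4% downward. The corresponding shares were 34% and 39.5% for the 6 h comparison, then 36.7% and 38.9% for the 24 h one. HYOU1 rose by 1.83 ± 0.07 at 24 h and PDIA6 by 1.67 ± 0.07, whereas DNAJB9 was higher at 3 h (1.21 ± 0.09) and lower at 24 h (-1.48 ± 0.12). Palbociclib called 0 of the 18 in either direction at any of the 4 times with edgeR. At an unadjusted p below 0.05 there were 2, 3, 4 and 0 of them at 9, 12, 15 and 24 h, and DESeq2 called 1 at 15 h. Of all tested genes edgeR called 0.114% higher and 1.08% lower at 9 h, and 0.83% and 4.81% at 12 h, after adjustment. These shares were 2.15% and 8.79% at 15 h and 5.76% and 12.3% at 24 h. Of 6 NRF2 targets, 3 rose and 3 fell at 24 h, close to the 36.7% and 38.9% of all genes, with NQO1 at 1.39 ± 0.08 and TXNRD1 at -1.01 ± 0.07.

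**Figure D4:**
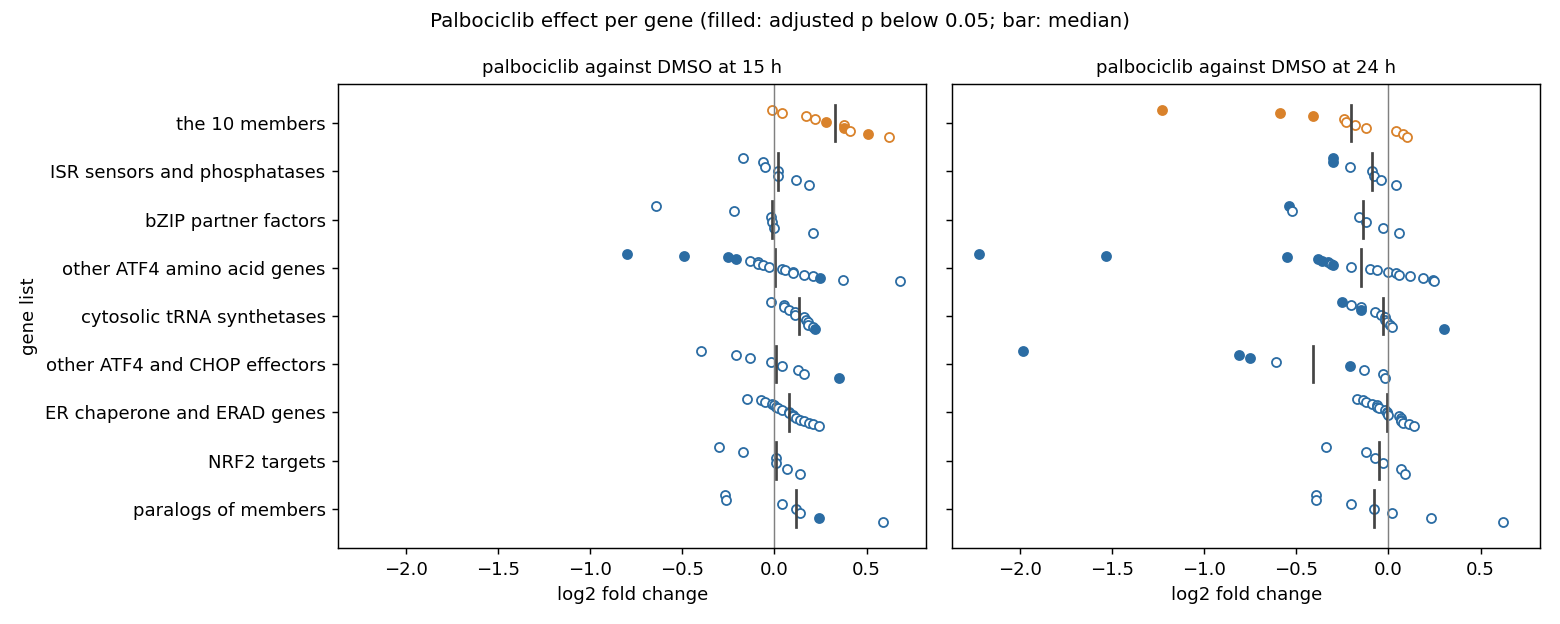
Log2 fold change of palbociclib against DMSO (horizontal axis) at 15 h and 24 h for each tested gene of the 10 members and of 8 pathway lists (rows), filled where the adjusted p was below 0.05, with a bar at each list's median. At 24 h the members' median was -0.20 and that of the other effectors -0.41, while the ER genes lay around 0.

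Paralogs of the members had their own courses. CHAC2 rose by 3.09 ± 0.19 at 24 h, SESN1 was at -3.16 ± 0.09 at 3 h and SESN3 at -3.21 ± 0.24 at 9 h. TRIB1 rose at 3 h by 2.18 ± 0.08, when TRIB3 did not, and HERPUD2, at 0.08 ± 0.07 at 3 h, was lower from 6 h on.

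Across the 11 group means of log2 CPM the members paired unevenly. Pearson's r was 0.95 for ATF4 with NUPR1, 0.81 for DDIT3 with SESN2, 0.77 for CHAC1 with ASNS, 0.76 for TRIB3 with SLC7A11 and -0.60 for ATF4 with TRIB3. These points share libraries and most of their time course, so the values are descriptions. Among 11416 other genes the most similar course to ATF4 was that of KAT8 (0.988), to TRIB3 that of DHCR7 (0.997), to NUPR1 that of CCNI (0.992), to SESN2 that of TRIQK (0.971) and to SLC7A11 that of ASPH (0.95). ASNS had the least similar nearest gene, WDR43 (0.800). The nearest genes of DDIT3, HERPUD1, CHAC1 and ADM2 were DSG2 (0.943), ATXN1 (0.937), SP2 (0.936) and NRBF2 (0.921).

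Ordered by their means over the 11 groups, neighbouring groups mostly overlapped. Of 10 neighbouring pairs, 4 did not overlap for TRIB3 and HERPUD1, 3 for ATF4, SESN2 and SLC7A11, 2 for CHAC1 and NUPR1, 1 for DDIT3 and ADM2 and 0 for ASNS. These counts were not made for all tested genes and follow each gene's own order, so they only describe the members. The highest group mean exceeded the lowest 18-fold for NUPR1, 6.61-fold for DDIT3, 5.99-fold for CHAC1, 5.45-fold for HERPUD1, 4.47-fold for SLC7A11, 3.92-fold for ADM2, 3.72-fold for ATF4, 3.39-fold for TRIB3 and 1.91-fold for SESN2. The highest mean was at 0 h for ATF4, DDIT3, SESN2 and NUPR1, at 3 h for CHAC1, HERPUD1 and ADM2, at 24 h of DMSO for ASNS and SLC7A11 and at 24 h of palbociclib for TRIB3.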

How the data were processed

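Messenger RNA of 31 MCF10A libraries was read as single ends of 75 nt from a stranded kit, per the labels' protocols. The tools, taken from the submitters' processing notes, were TopHat2 2.1.1, Bowtie2 2.2.9, Subread 1.5.1 and FastQC 0.11.3, with GRCh38.p7. The authors deposited raw counts per gene name, which featureCounts 1.5.1 made, per the file headers, over exons of GENCODE 25. Strand was not used, and multi-mapping or ambiguous reads were not counted. The series table held the same counts in all 31 columns.

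From these counts, 1 quasi-likelihood fit of edgeR 4.0.16 (R 4.3.3) was made by group on all 31 libraries, with filterByExpr and TMM factors (0.927 to 1.081), 20 residual degrees of freedom and Benjamini-Hochberg adjustment over 15787 genes. The common biological coefficient of variation was 6.55%. Standard errors were obtained by dividing the size of the log2 change by the root of its F statistic. No pair of replicates was within sampling noise of the other. The 10 members and all lists were chosen with earlier results of these data known. Besides the members, the text names from each list at most the 3 called genes of smallest p per comparison and direction, values of those genes in other comparisons, and the genes of most similar course over the 11 groups. Alternatives were DESeq2 1.42.0, library totals, no filter, a replicate block, an axis covariate, only the libraries compared, and libraries left out.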

Additional observations from a re-analysis of the deposited data

Results flagged for a closer look

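The effect of palbociclib differed between 15 and 24 h for 4 of the 10 genes by the test of the difference itself (edgeR, adjusted over 15787 genes). The change in the effect was -0.57 ± 0.12 for ATF4, -1.65 ± 0.37 for CHAC1, -0.97 ± 0.19 for ASNS and -0.74 ± 0.16 for SLC7A11. ATF4 went from 1.12 times the DMSO level at 15 h to 0.754 times at 24 h, CHAC1 from 1.33 to 0.426, ASNS from 1.3 to 0.663 and SLC7A11 from 1.42 to 0.848. The 24 h groups had 2 libraries each. With only the libraries compared the change of CHAC1 (-1.67) did not pass. Without the 5 libraries described above, which leaves 1 library in each 24 h group, CHAC1 was at -1.41 and SLC7A11 at -0.65. Without DMSO 24 h replicate 3 the changes of ATF4 (-0.51), CHAC1 (-1.11) and SLC7A11 (-0.62) no longer passed, and without palbociclib 24 h replicate 1 those of ATF4 (-0.45) and CHAC1 (-1.45) did not.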

How the results depend on the processing

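No member changed direction under any alternative in a comparison where it was called. The number of members called moved by more than 1.5 times as follows. Members higher against 0 h were 1 at 6 h and 0 at 9 h, and 2 at each of these times with DESeq2, with no filter, with the axis covariate, with only the libraries compared and without the 5 libraries. At 12 h 1 became 2 without the 5 libraries, and at 15 h 2 became 1 with library totals. Under palbociclib the 2 members higher at 9 h became 0 without the 5 libraries, and the 3 at 12 h became 5 with the axis covariate. The step from 12 to 15 h went from 1 to 2 members with the axis covariate or only the libraries compared. The change of the palbociclib effect from 9 to 15 h went from 0 to 1 with only the libraries compared, and that from 15 to 24 h from 4 to 2 without the 5 libraries. With 1 library left out the counts were 1 to 2 higher at 6 h, 0 to 2 at 9 h, 1 to 2 at 12 and 15 h, 0 to 2 under palbociclib at 9 h, 0 to 3 lower under palbociclib at 24 h, 2 to 4 from 9 to 12 h, 0 to 1 from 12 to 15 h and 1 to 4 for the effect from 15 to 24 h. Where a 24 h group kept 1 library, it was assumed to vary like the others. Single calls were also lost: SESN2 at 3 h with no filter (-0.24) or only the libraries compared (-0.16), ADM2 at 3 h with library totals (0.52), CHAC1 at 9 h with DESeq2 (-0.58) or no filter (-0.60), SESN2 from 9 to 12 h with DESeq2 (0.26), library totals (0.24) or no filter (0.25), DDIT3 from 15 to 24 h with DESeq2 (-0.59) or without the 5 libraries (-0.48), and SLC7A11 from 6 to 9 h without the 5 (-0.29). With only the libraries compared, HERPUD1 under palbociclib at 9 h (0.32) and the change of CHAC1 from 15 to 24 h (-1.67) were lost too. The causes were not tested.

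By the rule that every pair must exceed a correlation of 0.1, replicate numbers did not pair the libraries over all groups: 57 of 146 pairs of same-numbered libraries exceeded it (range -0.4 to 0.5). Among the 6 groups from 0 h to DMSO 15 h, a split made after seeing these values, all 15 pairs of replicate 2 (0.22 to 0.42) and all 15 of replicate 3 (0.11 to 0.36) exceeded it, and 0 of 15 of replicate 1 (0.00 to 0.10). With the replicate block, members higher were 2 at 6 h and 2 at 9 h, and 2 were called from 12 to 15 h.

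Over all genes, calls higher under palbociclib were 18 at 9 h, and 62 with the block, 109 with the axis covariate and 6 without the 5 libraries. They were 131 at 12 h (59 with no filter, 240 with the block, 311 with the covariate, 57 without the 5) and 340 at 15 h (595 with library totals, 145 with no filter, 593 with the covariate, 164 without the 5). At 24 h 910 were higher, and 285 without the 5 libraries. The share of calls that were higher was 44.7% at 3 h and 32.3% with library totals, 19.7% and 31.3% under palbociclib at 15 h, and 71.7% and 60.8% from 12 to 15 h. Depth limits CHAC1, DDIT3 and ADM2 most.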
